A study of Mus musculus with 8 samples.

Results

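The phagocyte NADPH oxidase genes described here are Cybb, Cyba, Ncf1, Ncf4, Rac1, Rac2 and Nox4, 7 of the 19938 genes that could be named on the arrays. Each was taken as the row of the deposited table whose annotation gives that symbol and no other, and each had exactly 1 such row. Transcript levels came from 8 Mouse Gene 1.0 ST arrays of Affymetrix, which carry many probes per transcript and use 1 dye. The values are log2 intensities, so a difference of 1 is a doubling. The samples were primary mammary tumors of FvB mice with the MMTV-Neu genotype, in which a mammary tumor virus promoter drives the Neu receptor in mammary epithelium. Cells of each tumor were sorted by flow cytometry into 4 tumor-initiating cell (TIC) fractions and 4 CD24- fractions, the non-initiating cells of the same tumors. The tumors were N251, N260, N283 and a pool of N222 and N229, whose cells were combined in equal parts before sorting, so 5 tumors gave 4 pairs. Both fractions carry the transgene, no treatment was given, and no source used here gives the ages of the mice, the markers of the TIC gate or whether each tumor came from its own mouse. The p-values measure the spread between these samples only.

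The phagocyte oxidase is a membrane enzyme of macrophages and neutrophils that passes electrons from NADPH to oxygen and so makes superoxide. Its membrane part is a heterodimer called cytochrome b, made of a catalytic chain (Cybb) and a stabilizing partner (Cyba). On activation, organizer and activator proteins move from the cytosol to the membrane together with a Rac GTPase, and the enzyme is known for killing engulfed microbes. Nox4 is a relative of Cybb that works in non-phagocytic cells and needs Cyba but not the cytosolic subunits.

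The labels were first set against marker genes. Ptprc, the leukocyte surface antigen CD45, had 6.23, 5.64, 5.64 and 6.08 in the TIC arrays of N251, N260, N283 and the pool, against 11.74, 10.88, 9.52 and 8.61 in the CD24- arrays. Epcam, an epithelial adhesion molecule, lay at 11.99 to 12.19 in the TIC arrays and 11.06 to 11.99 in the CD24- arrays. Cd24a RNA was also bright in the fraction labelled CD24-, at 10.53 to 12.12 there and 12.06 to 12.50 in the TIC arrays, so that the fraction's name refers to the sort and not to absence of this transcript. The lower quartile of all genes on an array lay between 6.05 and 6.28 and the median between 7.32 and 7.48, which gives a scale for how dim a gene was on the array. Probe sets differ in response, so intensities do not show which of several transcripts was more abundant. Background was not measured, so the difference of a gene that was dim in one fraction may be too small.

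Of the 7 oxidase genes, 5 (Cybb, Cyba, Ncf1, Ncf4 and Rac2) were lower in the TIC fraction of all 4 tumors, and in each of these all TIC arrays lay below all CD24- arrays. Of all genes, 11.8% were lower in all 4 tumors and 4.68% had all TIC arrays below all CD24- arrays. The opposite, all TIC arrays above all CD24- arrays, was seen in 0 of the 7 and in 5.19% of all genes. Cybb alone passed the test (limma, Benjamini-Hochberg adjusted p under 0.05 over all genes). Fell and rose are used here for called lower and called higher, so 1 gene of 7 fell and 0 rose. In that test 0.742% of all genes were called lower and 0.0502% were called higher. At an unadjusted p under 0.05, 5 of the 7 were lower and 0 higher. Of all 19938 genes 1244 (6.24%) were lower and 1600 were higher at that threshold. The median difference of the 7, TIC minus CD24-, was -2.16, and that of all genes was 0.04. In a fit with tumor as replicate block, which compares the fractions within each tumor, Cybb again was the only one called (adjusted p = 0.0189), with a background of 1.09% called lower and 0.863% called higher. With array weights, which count deviant arrays less, 5 of the 7 were called lower, against 3.9% of all genes. With the tumor as a random block 5 of the 7 were also called lower, against 3.04% of all genes.

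**Figure D1:**
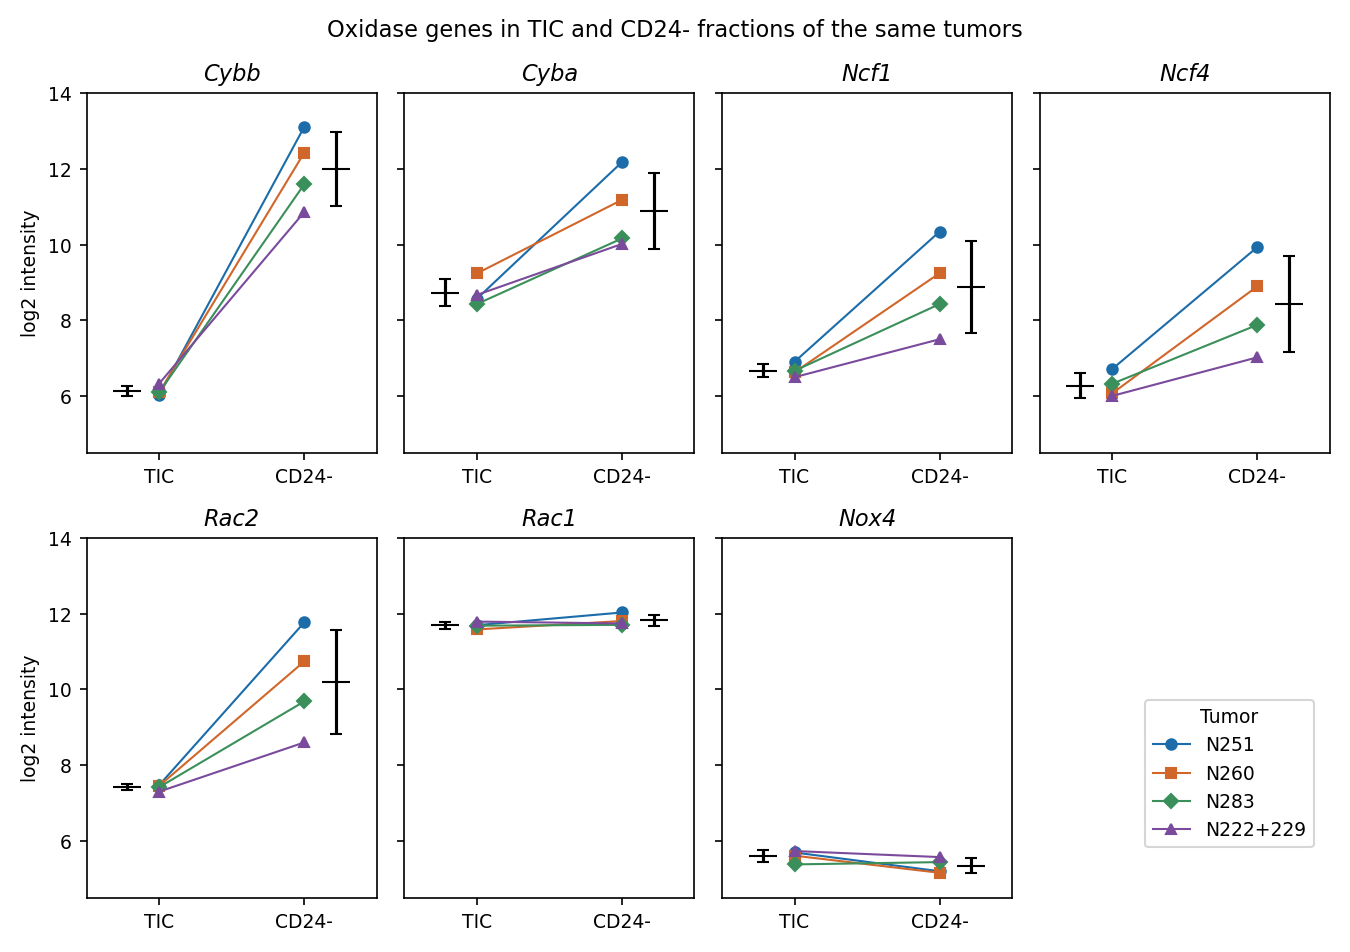
Log2 intensity (y axis) of the 7 oxidase genes in the TIC and CD24- fractions (x axis), with a line joining the 2 arrays of each tumor and black bars for the mean ± SD of 4 arrays. For Cybb, Cyba, Ncf1, Ncf4 and Rac2 every TIC point lies below every CD24- point, whereas the lines of Rac1 and Nox4 are nearly level.

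Cybb encodes the catalytic chain of cytochrome b, which carries the electrons across the membrane. It had 6.03, 6.10, 6.10 and 6.33 in the TIC arrays of N251, N260, N283 and the pool, against 13.11, 12.42, 11.59 and 10.86 in the CD24- arrays. The TIC arrays lay close together near the lower quartile of all genes, and the CD24- arrays were spread over more than 2 log2 units with no overlap. Cybb averaged 6.14 ± 0.13 in TIC fractions and 11.99 ± 0.98 in CD24- fractions (SD, n = 4 each). The difference was -5.85 ± 0.41 (SE, limma adjusted p = 0.000616), a 57.9-fold lower mean intensity and the 5th most negative of all genes. Within tumors it ran from -7.07 in N251 to -4.53 in the pool. Each of 23 alternatives, among them leaving out any 1 array or any 1 tumor, kept Cybb called and lower, with differences of -6.30 to -5.45 and adjusted p-values of 3.12e-06 to 0.0408.

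Cyba encodes the other chain of cytochrome b and is also the partner of several non-phagocytic oxidases. Its values were 8.57, 9.24, 8.43 and 8.67 in the TIC arrays and 12.18, 11.18, 10.16 and 10.02 in the CD24- arrays of N251, N260, N283 and the pool. The fractions did not overlap, and the values stayed above the median of all genes in every TIC array. Cyba averaged 8.73 ± 0.36 in TIC fractions and 10.88 ± 1.01 in CD24- fractions (SD, n = 4 each). The difference of -2.16 ± 0.44 (SE) missed the threshold without the block (limma adjusted p = 0.0654) and with it (adjusted p = 0.0546), and was called with the tumor as a random block (adjusted p = 0.014, background 3.04% called lower). The differences of the 2 cytochrome chains were unequal in each tumor. Cybb minus Cyba, the difference between their differences, ran from -4.39 to -3.18 on the log2 scale, with a mean of -3.70 ± 0.52 (SD over 4 tumors). The exact two-sided sign permutation gave p = 0.13, which is the smallest that 4 tumors allow (adjusted p = 0.167 over 4 such contrasts).

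Stretches before an annotated start of each cytochrome gene are shown because these chains form 1 enzyme and were lower in the same tumors. They are RefSeq sequence of GRCm38.p6, 250 bases read 5′ to 3′ along the strand of the gene. The Cyba stretch adjoins the end of the gene's RefSeq span (chr8:122424771-122432940), whereas the Cybb stretch lies inside the span of its gene (chrX:9435252-9487766) and so before a start within it. Capitals mark GGAA, the core that ETS-family factors such as PU.1 bind, and CCAAT, on either strand (TTCC and ATTGG where the match is on the other strand).
Cybb (chrX:9469325-9469574, minus strand): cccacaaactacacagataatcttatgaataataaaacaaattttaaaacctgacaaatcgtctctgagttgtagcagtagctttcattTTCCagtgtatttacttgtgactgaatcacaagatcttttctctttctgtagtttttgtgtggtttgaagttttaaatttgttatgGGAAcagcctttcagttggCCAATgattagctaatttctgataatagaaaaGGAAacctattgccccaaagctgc
Cyba (chr8:122432941-122433190, minus strand): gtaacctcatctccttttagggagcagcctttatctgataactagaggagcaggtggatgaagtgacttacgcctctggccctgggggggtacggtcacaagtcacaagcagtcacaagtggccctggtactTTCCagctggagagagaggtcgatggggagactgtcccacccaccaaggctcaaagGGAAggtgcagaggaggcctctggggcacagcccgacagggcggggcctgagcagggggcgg

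The 2 stretches differed in base composition. G and C made up 34.0% of the Cybb stretch and 60.0% of the Cyba stretch, where the median of all 32851 promoters in the table was 52.4%. The Cybb stretch held 3 matches to GGAA and 1 to CCAAT, which began 56 bases before the start, and the Cyba stretch held 2 matches to GGAA and 0 to CCAAT. GGAA stood in 93.4% and CCAAT in 33.8% of all promoters, so the first tells little about any gene, and both motifs were chosen after these sequences were seen. The longer PU.1 core GAGGAA was in 23.3% of all promoters and in 0 of the 4 oxidase genes that the table holds (Cybb, Cyba, Ncf1 and Nox4). The letters AGGAAG, which can overlap GAGGAA, were in 29.5% of all promoters and in 1 of the 4, Nox4. A match is a description of the sequence and not a shown binding site.

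Ncf1 encodes the organizer that carries the cytosolic complex to cytochrome b. Its values were 6.90, 6.63, 6.67 and 6.50 in the TIC arrays of N251, N260, N283 and the pool, against 10.34, 9.24, 8.43 and 7.50 in the CD24- arrays. The fractions did not overlap, and their distance was smallest in the pool, at -1.002, and largest in N251, at -3.44. The mean difference was -2.20 ± 0.50 (SE), with a limma adjusted p = 0.101 (0.0567 with the block and 0.0191 with the random block).

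Ncf4 encodes a further cytosolic subunit, which binds a phosphoinositide of the phagosome membrane. It had 6.71, 6.07, 6.32 and 6.004 in the TIC arrays, against 9.93, 8.89, 7.88 and 7.02 in the CD24- arrays of N251, N260, N283 and the pool. As with Ncf1, the CD24- array of the pool came closest to the TIC arrays. The mean difference was -2.15 ± 0.53 (SE, limma adjusted p = 0.126, 0.0583 with the block and 0.0234 with the random block). The differences of the 2 cytosolic subunits lay close together, Ncf4 minus Ncf1 being 0.05 ± 0.20 (SD over 4 tumors, from -0.21 to 0.22), with an exact two-sided sign permutation p = 0.875.

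Rac2 and Rac1 are closely related GTPases that can each switch on the oxidase, Rac2 being found mainly in blood cells and Rac1 used by nearly all cells. Rac2 had 7.47, 7.45, 7.42 and 7.30 in the TIC arrays of N251, N260, N283 and the pool, against 11.77, 10.74, 9.68 and 8.60 in the CD24- arrays. The TIC arrays were almost the same, at 7.41 ± 0.08 (SD, n = 4), while the CD24- arrays, at 10.19 ± 1.36, were spread over more than 3 log2 units without reaching them. The difference of -2.78 ± 0.56 (SE) missed the threshold (limma adjusted p = 0.0622, 0.0542 with the block) and was called with the random block (adjusted p = 0.0137).

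Rac1 was bright in both fractions. It had 11.69, 11.58, 11.68 and 11.79 in the TIC arrays of N251, N260, N283 and the pool, against 12.03, 11.80, 11.70 and 11.74 in the CD24- arrays. The fractions overlapped, and the pool had its higher value in the TIC array. The difference was -0.13 ± 0.10 (SE), with a 95% interval of -0.36 to 0.10 and a limma adjusted p = 0.604. Rac2 minus Rac1, the difference between their differences, was negative in all 4 tumors, from -3.96 to -1.35, with a mean of -2.65 ± 1.12 (SD). The exact two-sided sign permutation gave p = 0.13, again the smallest possible (adjusted p = 0.167). Whether probes of one Rac gene also bind transcripts of another was not tested.

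Nox4, the oxidase of non-phagocytic cells, was dim on all 8 arrays. It had 5.69, 5.61, 5.38 and 5.73 in the TIC arrays, against 5.20, 5.16, 5.44 and 5.57 in the CD24- arrays of N251, N260, N283 and the pool. Every value was below the lower quartile of genes, and the fractions overlapped. The difference was 0.26 ± 0.13 (SE, 95% interval -0.03 to 0.55, limma adjusted p = 0.389), positive in 3 of 4 tumors. Cybb minus Nox4 was -6.12 ± 1.30 (SD over 4 tumors) and negative in all 4 (exact two-sided sign permutation p = 0.13, adjusted p = 0.167).

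The size of the differences followed the same order of tumors in several genes, a pattern looked for after the values were seen. In the CD24- fraction Cybb, Cyba, Ncf1, Ncf4 and Rac2 each ran from N251, the highest, through N260 and N283 to the pool, the lowest. This held for 5 of the 7 oxidase genes and for 11.0% of all genes. The SD between arrays was larger in the CD24- fraction for all 7 oxidase genes and for 65.3% of all genes.

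Leukocyte markers moved with these genes. Of 14 macrophage markers 10 fell and 0 rose (13 lower and 0 higher before adjustment, at a p under 0.05), and the list's mean level was 6.31 to 6.63 in the TIC arrays and 9.10 to 11.50 in the CD24- arrays. C1qb of complement, the lysozyme gene Lyz2 and Mpeg1, a macrophage perforin, differed by -5.42, -5.77 and -5.43 (limma adjusted p = 0.000572, 0.00173 and 0.00191). The median macrophage difference was -5.47 in N251, -4.52 in N260, -3.55 for tumor N283 and -2.92 for the pool, the order seen in the oxidase genes, and 13 of the 14 had that order in the CD24- arrays. This order was not particular to macrophage markers. It was also held by 13 of 14 T and NK cell, 9 of 12 pan-leukocyte and 4 of 13 neutrophil markers, against 11.0% of all genes. The T and NK cell medians were -2.86 in N251, -1.86 in N260, -1.75 for N283 and -0.66 for the pool. Of 12 pan-leukocyte markers 6 fell and 0 rose, with 11 lower and 0 higher before adjustment and 8 called lower with the block (list mean 6.50 to 6.72 in the TIC arrays, 8.52 to 10.91 in the CD24- arrays), with Cd53 at -5.50, Laptm5 at -5.26, and Fyb, an adaptor of blood cells, at -4.71. Of 14 T and NK cell markers 3 fell and 0 rose, Cd3g at -5.62, Gzmb at -4.94 and Gzma at -1.80 (list mean 5.99 to 6.20 in the TIC arrays, 7.03 to 9.56 in the CD24- arrays). All 14 were lower in all 4 tumors, against 11.8% of all genes. Before adjustment 13 were lower, and 10 were called lower with the random block. That fit called 13 of the macrophage and 10 of the pan-leukocyte markers lower.

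For neutrophils, the other main users of this oxidase, no marker passed the test without the block. Of 13 neutrophil markers 0 were called by limma without the block, 6 were lower and 0 higher at an unadjusted p under 0.05, and 1 fell with the block, Csf3r, the receptor of a neutrophil growth factor (-2.20, limma adjusted p = 0.0784, and 0.0425 with the block). In all 4 tumors 7 of the 13 were lower and 1 higher, against 11.8% and 23.2% of all genes. The median of the 13 was -0.37, and the list mean was 6.32 to 6.61 in the TIC arrays and 6.61 to 7.48 in the CD24- arrays. Of 9 dendritic cell markers 2 fell, Siglech (-1.59) and Cd209a (-1.13), and 5 with the random block, with a list mean of 6.29 to 6.48 in the TIC arrays and 6.77 to 7.56 in the CD24- arrays. Of 8 B cell markers 0 were called by limma, 4 were lower and 0 higher at an unadjusted p under 0.05, and 1 fell with the block, Cd79b (-1.25, adjusted p = 0.0313). Their list mean was 5.91 to 6.09 in the TIC arrays and 6.10 to 6.78 in the CD24- arrays. The part of these cell types in the oxidase differences was not tested, and in such bulk samples fewer cells of a type and less RNA per cell cannot be told apart.

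**Figure D2:**
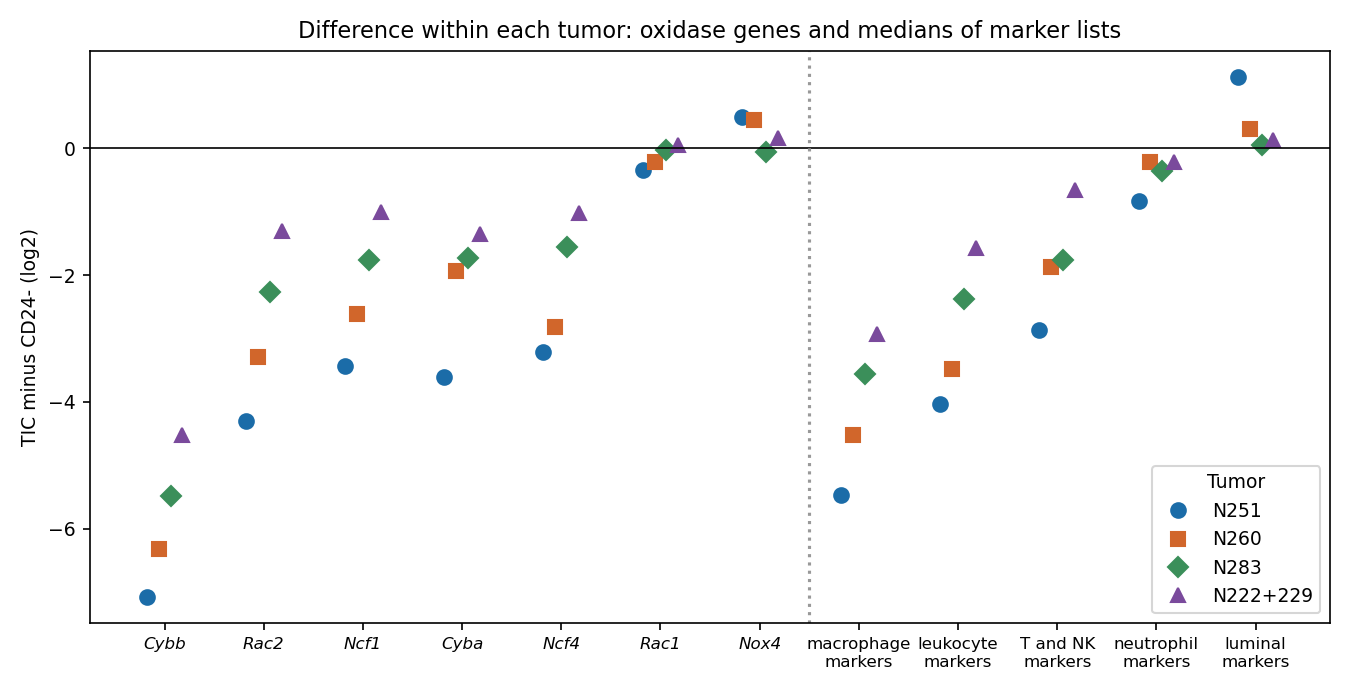
TIC minus CD24- difference on the log2 scale (y axis) in each of the 4 tumors (symbols) for the 7 oxidase genes, left of the dotted line, and for the medians of 5 marker lists, right of it. Cybb, Rac2, Ncf1, Cyba and Ncf4 are most negative in N251 and least negative in the pool of N222 and N229. The same holds for the macrophage, leukocyte, T and NK, and neutrophil medians. Rac1 was also lowest in N251 (-0.33) and highest in the pool (0.05). The values of Rac1, Nox4 and the luminal median lie near or above 0.

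Over all 8 arrays the profile of Cybb lay nearest to those of other leukocyte transcripts. The 3 genes nearest to it were found by the root mean square distance between the 8 log2 values, each gene centred on its own mean. They were Ly86, a partner of a Toll-like receptor relative, at 0.13, Lyz2 at 0.22 and Cd53 at 0.24. Ly86 differed by -5.91 (limma adjusted p = 0.000616). A difference close to that of Cybb follows from the way these genes were chosen.

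The other genes of the NADPH oxidase family had smaller differences than Cybb, Cyba, Ncf1, Ncf4 and Rac2. Of 11 measured, limma called 0 in either direction without a block, with the fixed block or with the random block, and their median difference was 0.17. At an unadjusted p under 0.05 the only one was Cybc1, a chaperone of cytochrome b, which differed by -0.45 ± 0.17 (SE, limma adjusted p = 0.290). Cybc1 was lower in all 4 tumors, with 8.13 to 8.27 in the TIC arrays and 8.32 to 9.07 in the CD24- arrays.

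The dual oxidase Duox1, which makes hydrogen peroxide at epithelial surfaces, was bright in both fractions. It had 12.33, 12.005, 12.43 and 12.19 in the TIC arrays of N251, N260, N283 and the pool, against 10.98, 11.75, 12.26 and 12.40 in the CD24- arrays. The fractions overlapped, and the one low array was the CD24- array of N251. The difference was 0.39 ± 0.28 (SE, 95% interval -0.25 to 1.03, limma adjusted p = 0.576), and most of it came from N251, at 1.35, with -0.21 in the pool.

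Duoxa1, the maturation factor that Duox1 needs to reach the cell surface, had 13.03, 12.89, 13.07 and 13.27 in the TIC arrays, against 11.96, 12.70, 13.06 and 13.43 in the CD24- arrays. Its pattern over tumors was that of Duox1, with a difference of 0.28 ± 0.27 (SE, limma adjusted p = 0.709). Duox2 and Duoxa2, another such pair, were dim. Duox2 averaged 6.57 in TIC fractions and 6.38 in CD24- fractions, and Duoxa2 averaged 6.48 in TIC fractions and 6.31 in CD24- fractions. They differed by 0.19 and 0.17 (adjusted p = 0.494 and 0.609).

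The epithelial oxidase Nox1 has subunits of its own. Noxo1, its organizer, averaged 9.30 ± 0.09 in TIC fractions and 9.05 ± 0.41 in CD24- fractions (SD, n = 4 each; difference 0.25, limma adjusted p = 0.599). Noxa1, its activator, averaged 6.49 in TIC fractions and 6.42 in CD24- fractions. Nox1 itself averaged 5.97 in TIC fractions and 6.10 in CD24- fractions. Nox3, an oxidase of the inner ear, averaged 5.23 in TIC fractions and 5.49 in CD24- fractions. The differences of Noxa1, Nox1 and Nox3 were 0.08, -0.14 and -0.26 (adjusted p = 0.828, 0.637 and 0.462). Rac3, the third Rac GTPase, had 8.53 to 8.82 in the TIC arrays and 8.34 to 8.88 in the CD24- arrays, with a difference of 0.005 ± 0.139 (SE, adjusted p = 0.994). Poldip2, a protein that binds Cyba, differed by 0.34 (adjusted p = 0.514). It was higher in all 4 tumors, as were 23.2% of all genes.

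**Figure D3:**
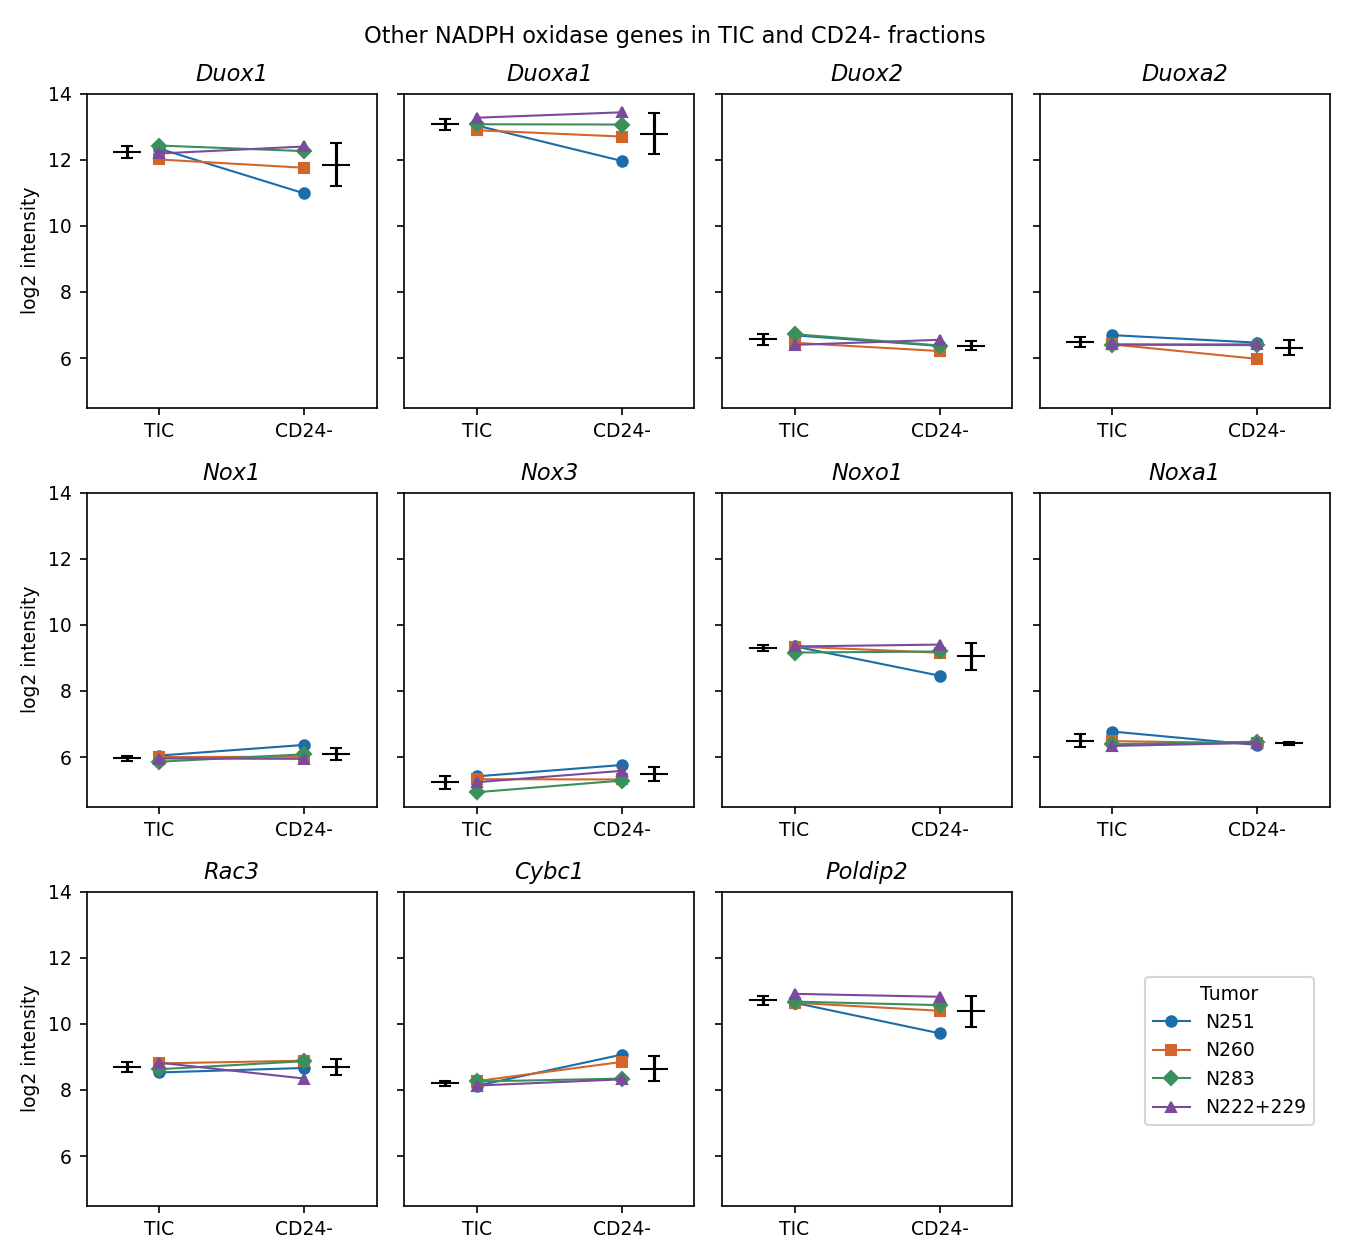
Log2 intensity (y axis) of 11 other NADPH oxidase genes in the TIC and CD24- fractions (x axis), with a line joining the 2 arrays of each tumor and black bars for the mean ± SD of 4 arrays. Duox1 and Duoxa1 are bright in both fractions, lowest in the CD24- array of N251, and none of the 11 was called.

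In the CD24- arrays Duox1, Duoxa1, Noxo1 and Poldip2 ran in the opposite order to the phagocyte subunits, lowest in N251 and highest in the pool. This was 4 of the 11 genes, against 11.5% of all genes. That order was also seen in 4 of 14 luminal epithelial markers, Epcam being 1 of the 4. The mean level of the 14 was 10.70 to 10.78 in the TIC arrays and 9.67 to 10.68 in the CD24- arrays. Of the 14, limma called 0 without the block or with it, and the median difference was 0.43. At an unadjusted p under 0.05, 4 were higher and 0 lower. With the random block 1 was called higher, Cd24a (1.11, adjusted p = 0.0293), as were 430 of all genes. In all 4 tumors 9 of the 14 were higher, against 23.2% of all genes. The luminal median was 1.13 in N251 and between 0.05 and 0.31 in the others. Of 12 fibroblast markers 0 were called by limma (5 lower at an unadjusted p under 0.05, 1 called lower with the block and 4 with the random block), with a median of -0.24 and the smallest p for Serpinf1 (-0.70). Of 11 endothelial markers 0 were called (3 lower at an unadjusted p under 0.05, 1 called lower with the random block), with a median of -0.10 and the smallest p for Tie1 (-0.55).

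Among 19 measured regulators of oxidase assembly 3 fell and 0 rose (limma, no block), with a median of -0.53. At an unadjusted p under 0.05, 10 were lower and 1 higher, against 1244 and 1600 of all 19938 genes. In all 4 tumors 13 were lower and 3 higher, against 11.8% and 23.2% of all genes. In the CD24- arrays 11 had the tumor order of the oxidase genes and 3 the opposite order, against 11.0% and 11.5% of all genes. Arhgdib, the inhibitor that holds Rac proteins in the cytosol of blood cells, had 6.80, 6.67, 6.29 and 7.06 in the TIC arrays of N251, N260, N283 and the pool, against 12.41, 11.66, 10.36 and 9.36 in the CD24- arrays (difference -4.24 ± 0.57 SE, adjusted p = 0.0125). Vav1, a nucleotide exchange factor for Rac in blood cells, differed by -3.61 (adjusted p = 0.0259), and Prkcb, a protein kinase C that phosphorylates the organizer, by -3.07 (adjusted p = 0.0274). The broadly expressed relatives Vav2, Vav3 and Prkca differed by -0.53, 0.29 and 0.37 and were not called (chosen after their values were seen). Prkcd, Rhog and Prex1, chosen in the same way, differed by -0.89, -0.93 and -1.05. Each of them was lower in all 4 tumors and was not called. With the block a 4th gene was called, Hvcn1, the proton channel that balances the charge moved by the oxidase (-2.42, adjusted p = 0.0290, and 0.0546 without the block), and the random block called 6 lower. Rap1a, a small GTPase found with cytochrome b, differed by -0.15 and was not called.

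Of 11 transcription factors known to act on oxidase genes in myeloid cells 1 fell and 0 rose. Spi1, which encodes PU.1, the factor that activates Cybb and other myeloid genes, had 6.51, 6.17, 6.07 and 5.90 in the TIC arrays of N251, N260, N283 and the pool, against 11.77, 10.66, 9.45 and 9.10 in the CD24- arrays. The difference was -4.09 ± 0.51 (SE, limma adjusted p = 0.00847). With the block 3 fell, namely Spi1, Irf8 (-2.92, adjusted p = 0.0396, and 0.0548 without the block) and Runx1 (-0.60, adjusted p = 0.0356, and 0.382 without the block), the last 2 named after their values were seen. With the random block, which estimates the correlation within tumors, Runx1 was not called (adjusted p = 0.0931), and Spi1 and Irf8 were (0.00118 and 0.00950). The median of the 11 was -0.18. In the CD24- arrays 5 of them had the tumor order of the oxidase genes, against 11.0% of all genes.

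Of 28 measured enzymes of superoxide and peroxide metabolism 0 were called by limma without the block, and the median was 0.10. At an unadjusted p under 0.05, 3 were lower and 3 higher. Sod1, Sod2 and Cat, the cytosolic and mitochondrial dismutases and catalase, differed by -0.06, 0.22 and -0.05. Gpx3, a secreted glutathione peroxidase, had the smallest p (-2.47, limma adjusted p = 0.0975), and Hmox1, the heme-degrading enzyme, was called with the block (-2.26, adjusted p = 0.0479, against 0.0995 without it). With the random block 2 were called lower, these same genes (adjusted p = 0.0191 for Gpx3 and 0.0169 for Hmox1), and 1 was called higher. The largest positive differences were those of Gpx8 (1.10) and Sod3 (0.92). Both were higher in all 4 tumors and were not called without the block (limma adjusted p = 0.140 and 0.369) or with it (0.0942 and 0.0545). Genes of this list other than Gpx3 were chosen after their values were seen.

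**Figure D4:**
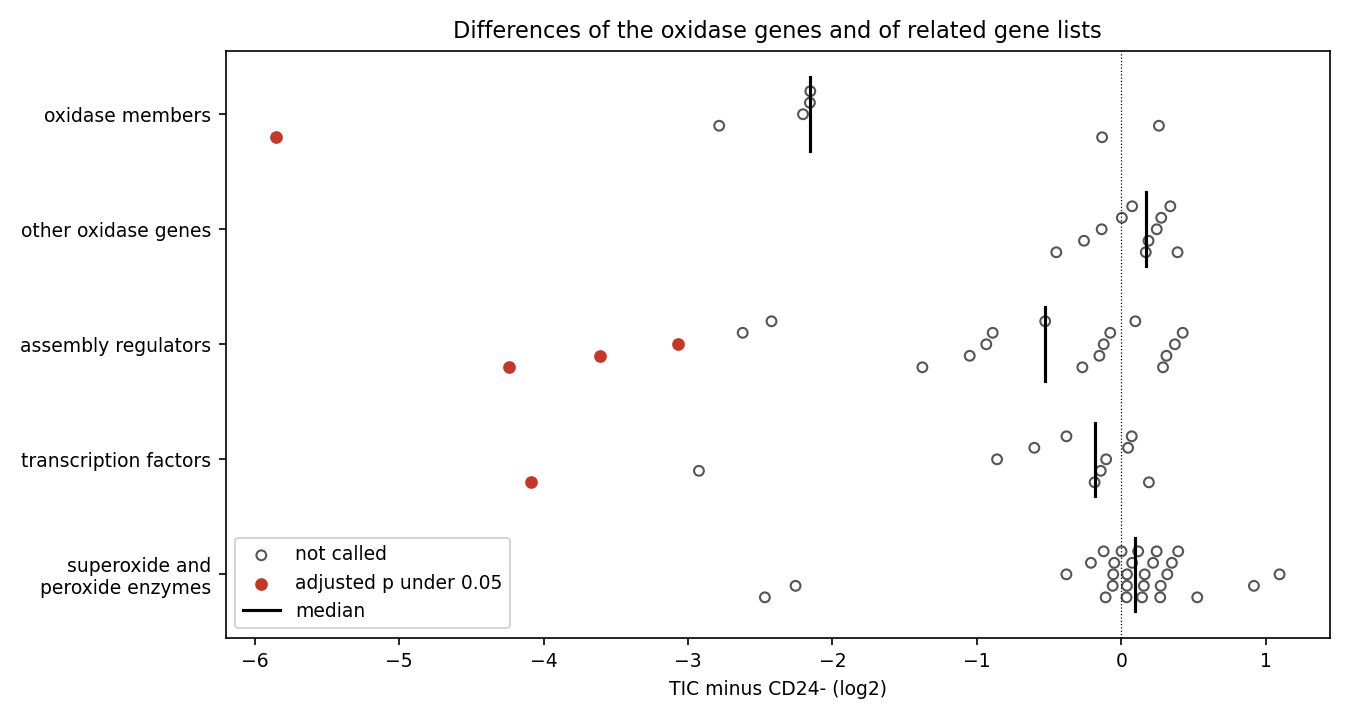
TIC minus CD24- difference on the log2 scale (x axis) of each measured gene in 5 lists (rows), with filled points for genes called at an adjusted p under 0.05 without the block and a black bar for the list's median. Called genes lie at -3.07 or below, in the oxidase members, the assembly regulators and the transcription factors.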

How the data were processed

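Values are log2 intensities that the authors made and deposited as 1 table of 35556 rows; RMA and Partek were used per the submitters' processing notes, and no source used here gives their versions or settings or the genome build. They ran from 1.76 to 14.57, with array medians of 7.03 to 7.18, and no 2 arrays were duplicates (highest correlation 0.991). Rows with exactly 1 symbol (21789) were reduced to 19938 genes by the brightest row over all arrays. Differences are TIC minus CD24-, tested with limma 3.58.1 in R 4.3.3 (lmFit, eBayes) on 8 arrays without a block, adjusted over all genes. The fits were run on simulated data that gave each gene the same spread in both fractions, so unequal SDs were not covered. The labels pair the fractions by tumor, and the 2 arrays of a tumor deviated together from their group means (correlation over genes 0.322 in N251, 0.435 in N260, 0.300 for N283, 0.557 in the pool). The titles' tumor names were followed where the growth protocol lists others. The members, lists and tests were chosen with earlier results of these data known. Named genes were the 7 members, the other oxidase genes, per list up to 3 called genes with the largest difference or else the one with the smallest p, Cd24a, Epcam, Erbb2 and Ptprc, and the 3 nearest profiles of each called member. Of these Erbb2, the receptor gene of the transgene's family, differed by 0.44 (adjusted p = 0.435). With 4 arrays per fraction, precision is limited throughout. One gene list that was computed is not reported here.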

Additional observations from a re-analysis of the deposited data

Results flagged for a closer look

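Of 116 groups of 4 arrays, 5 held a value far from the other 3, where chance gives about 1 in 20; none was an oxidase member. Duoxa2 was high in the TIC array of N251, at 6.694, and low in the CD24- array of N260, at 5.976. Noxo1 was low in the TIC array of N283, at 9.160, and Poldip2 was high in the TIC array of the N222 and N229 pool, at 10.905. Lyz2 was high in the TIC array of the same pool, at 6.989.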

How the results depend on the processing

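Without the block 1 member was called lower, 148 genes lower and 10 higher. The paired fit (replicate block) gave 1 member, 218 lower and 172 higher genes; it changed no member's call. The random block gave 5 members, 606 lower and 430 higher, and array weights 5 members, 778 lower and 191 higher. Higher counts were 26 with arrays centred on their medians, 3 by cyclic loess, 5 without genes below the median level, 2 with all rows, 2 at a difference of at least 1, and 0 at an adjusted p under 0.01, which left 58 lower. Omitting single arrays or tumors gave 8 lower genes (without tumor N260) to 583 (without the CD24- array of the pool), 0 to 46 higher genes, and 1 to 5 members. Without the CD24- array of the pool Cyba, Ncf1, Ncf4 and Rac2 were called with Cybb (adjusted p = 0.0174, 0.00702, 0.0120 and 0.00336), and without that of N251 Cyba, Ncf1 and Rac2 (0.0249, 0.0466 and 0.0306). Without both arrays of the pool Ncf1 and Rac2 were called (0.0476 and 0.0281). The cause was not tested. No member's difference changed sign in the alternatives run. Ncf4 minus Ncf1 turned to -0.00545 without tumor N251 and -0.00173 without N283, and was 0.137 without N260. Members called higher stayed at 0 in all settings. Ncf4 and Nox4 have no value under the filters that drop them, and scalings moved the median of all genes by at most 0.0399.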
